A study of Homo sapiens with 12 samples.

Results

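The difference between OVCAR-3 cells given Fusicoccin A (FC-A) together with interferon alpha and cells given interferon alpha alone was measured by RNA sequencing. The 6 libraries of these groups were taken by their labels from 12 in all, and 15990 genes of 28035 listed were compared, those with a mean of at least 10 normalized counts over the 12 libraries. OVCAR-3 is an established epithelial line from a human ovarian adenocarcinoma, labelled as wild type, so every group is a culture of this single line. All cells were collected after 6 h of treatment, with 3 libraries a group. The Combination group received FC-A and interferon alpha, the IFNa group interferon alpha, the FC-A group FC-A, and the DMSO group the vehicle DMSO. Doses, the subtype of interferon alpha and whether the IFNa cultures also held DMSO were not given in any source used here. No source says whether the 3 libraries of a group are 3 separate cultures. The p-values therefore measure the spread among these libraries, and that spread may be technical alone.

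FC-A is a fungal glycoside that fills the rim of a groove in 14-3-3 adapter proteins beside a bound, phosphorylated partner and so holds the complex together. 14-3-3 proteins bind phosphorylated serines and threonines in kinases, in death regulators such as BAD and in transcription regulators such as the FOXO factors and YAP, many of which they keep in the cytoplasm. Interferon alpha signals through the receptor chains IFNAR1 and IFNAR2 and the kinases JAK1 and TYK2 to a transcription factor complex that switches on antiviral and antigen presentation genes. Adding FC-A to interferon therefore sets an agent that acts on many phosphoproteins on top of a strong transcriptional program.

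Reads assigned to genes, recovered from the normalized counts, came to 35.1, 31.2 and 34.5 M in the Combination libraries and 36.4, 39.5 and 33.2 M in the IFNa libraries. The first principal component of the 6 libraries held 39.3% of the variance. On it the Combination libraries lay at 3.24, 5.16 and 26.2, against -18.1, -26.2 and 9.64 for the IFNa libraries, so that replicate 3 lay highest in both groups and IFNa replicate 3 lay above Combination replicates 1 and 2. The second component held 17.2%, and on it Combination replicates 1 and 2 lay at 17.6 and 14.1 and all other libraries between -11.9 and -2.74. Replicate 3 of each group thus stood apart, and results that rest on it are given with and without replicate 3 of all groups, a fit that leaves 2 libraries a group. Markers of ovarian epithelium were present in every library. Their 17 tested members summed to between 487426 and 526198 normalized counts with the Combination and between 449139 and 501143 with IFNa. Averages with the Combination and with IFNa ranged from 23.4 and 17.3 for ESR1 to 184204 and 168469 for the keratin KRT8. Abundant members thus weigh most in the sum. Of the markers of other cell types, the fibroblast genes DCN and LUM were at 0 in the Combination libraries and averaged 0.635 and 0.34 normalized counts with IFNa. Other members of these lists were present. The fibroblast markers FBLN1 and COL1A1 averaged 4216 and 1788 normalized counts with the Combination, and 4030 and 1676 with IFNa. The endothelial marker ERG averaged 452 with the Combination and 442 with IFNa, and the immune marker CD14 averaged 237 and 177. PTPRC, the leukocyte antigen CD45, averaged 7.58 normalized counts with the Combination and 20.1 with IFNa (adjusted p = 0.169). Summed normalized counts ranged over 5941 to 6775 with the Combination and 5771 to 6172 with IFNa for fibroblast markers, 353 to 449.5 with the Combination and 310.0 to 429.9 with IFNa for immune markers, and 691 to 705 with the Combination and 598 to 751 with IFNa for endothelial markers. No marker list had a member past the test (4 fibroblast, 5 immune, 5 endothelial and 17 ovarian genes tested).

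**Figure D1:**
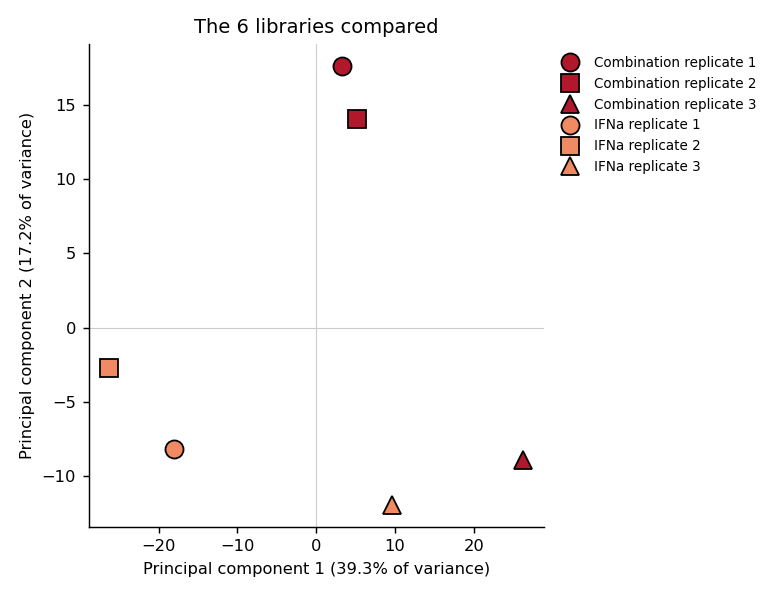
Each point is 1 of the 6 libraries, placed by its scores on the first (39.3% of the variance) and second (17.2%) principal components of log2(normalized count + 1) over the genes tested; colour marks the group and shape the replicate. Replicate 3 lies to the right of the other 2 libraries of its group, at 26.2 for the Combination and 9.64 for IFNa.

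Added to interferon, FC-A raised 22 genes and lowered 31. The largest rises were in the growth and stress regulator DDIT4 and the death gene BMF. The glutathione-degrading enzyme CHAC1 was among the other genes that rose. Those that fell included the BMP-binding protein BMPER, the chloride channel protein CLIC5, the collagenase MMP1, filaggrin (FLG) and the carboxypeptidase CPA4. The changes were small. 19 of the 53 genes differed by at least 1.5-fold and 4 by at least 2-fold, all 4 of them lower (BMPER, PTGER3, KCNJ15 and TMEM178A). PTGER3 averaged only 14.7 normalized counts with the Combination and 32.6 with IFNa, and TMEM178A 45.9 and 95.7. Neither of them passed in edgeR, a test on read counts (adjusted p = 0.0549 and 0.056).

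In numbers, 53 of 15990 genes (0.331%) passed an adjusted p of 0.05 in limma's moderated test, 22 of them higher (0.138%) and 31 lower (0.194%), while 2118 had an unadjusted p under 0.05. The median log2 fold change over all genes tested was 0.0046 and the median standard error 0.0924. In each of the 53 genes the 3 Combination libraries lay wholly above or wholly below the 3 IFNa libraries, as they did in 2621 of all genes tested (16.4%), with 9.64% wholly higher and 6.75% wholly lower. On the reads recovered from the normalized counts, edgeR called 55 genes (0.344%) and DESeq2 240 of the 12890 it adjusted (1.86%), sharing 48 and 52 with the 53. limma called 11 without its variance trend and 10 when the 2 groups were fitted alone. Counts depended on single libraries. Without replicate 3 of every group 1189 genes were called (7.45%), 620 higher (3.89%) and 569 lower (3.57%), and all 53 were among them. Leaving out 1 library at a time gave 14, 20 and 18 calls without Combination replicates 1, 2 and 3, and 4, 7 and 510 without IFNa replicates 1, 2 and 3. It gave 92, 21 and 90 without FC-A replicates 1, 2 and 3, and 20, 25 and 27 without DMSO replicates 1, 2 and 3. DDIT4, CPA4, CLIC5 and FLG passed in these 12 fits and in all 24 alternatives tried. The other 49 lost their call in at least 1 of the 12 fits, and none of the 53 did so without IFNa replicate 3 or without FC-A replicate 1 or 3.

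**Figure D2:**
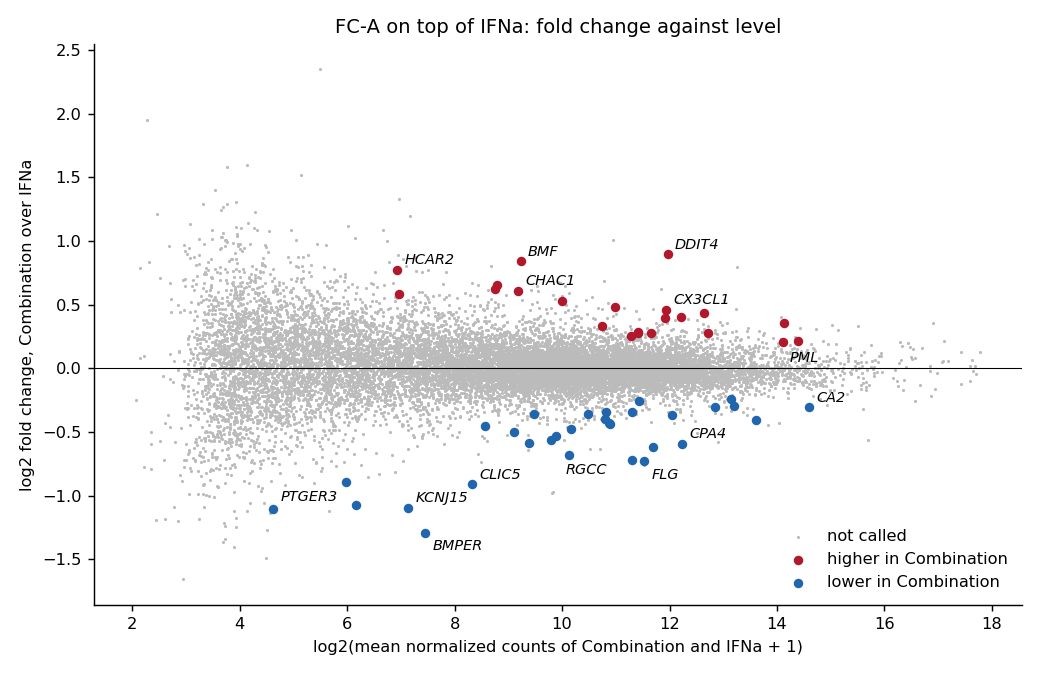
Each point is 1 of the 15990 genes tested, with log2 of the mean normalized count of the Combination and IFNa libraries plus 1 on the horizontal axis and the log2 fold change of the Combination over IFNa on the vertical axis; red points are the 22 genes called higher and blue points the 31 called lower. Most called genes lie within 1 log2 unit of 0, and the 4 called genes beyond it are lower.

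DDIT4, a brake on mTORC1 signalling in stressed cells, had 4868, 4955 and 5746 normalized counts in the Combination libraries, against 2648, 2501 and 3225 in the IFNa libraries. The lowest Combination library stood above the highest IFNa library by a wide margin, and DDIT4 was 1.865-fold higher (log2 fold change 0.90, SE 0.09, adjusted p = 0.00188). CHAC1, which breaks down glutathione and is a target of the stress factor ATF4, had 650.1, 745 and 712 normalized counts with the Combination, against 404, 467 and 511 with IFNa (log2 fold change 0.61, SE 0.11, adjusted p = 0.031). Its groups did not overlap, and replicate 3 was not the highest Combination library. NUPR1, a small stress-induced chromatin protein, had 2325, 2333 and 3187 normalized counts with the Combination, against 1090.3, 1020.3 and 1897 with IFNa, and missed the threshold (log2 fold change 1.01, SE 0.20, adjusted p = 0.0507). Replicate 3 was the highest library of both groups for NUPR1, and without replicate 3 its log2 fold change was 1.14 (adjusted p = 3.86e-05). CHAC1 lost its call in 9 of the 12 fits that left out 1 library, with the highest adjusted p (0.217) without IFNa replicate 1.

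DDIT4 and CHAC1 were the 2 genes that rose among 44 targets of ATF4, the factor of the integrated stress response whose translation increases when eIF2 is phosphorylated. None fell, 42 did not pass and 32 had a positive log2 fold change, with a median of 0.12 against 0.0046 over all genes. In the fit of all libraries, counts of list members called for the Combination against IFNa stand against 0.138% of all genes higher and 0.194% lower. Counts of members with a positive log2 fold change stand against 8226 of the 15990 genes. Without replicate 3, 14 of the 44 passed, all higher, beside 3.89% of all genes. Every count of list members without replicate 3 stands against 3.89% of all genes higher and 3.57% lower in that fit. They included the factor's own gene ATF4 (0.15, adjusted p = 0.0483), SESN2, a brake on mTORC1 (0.40, adjusted p = 0.0304), the glycine transporter SLC6A9 (0.63, adjusted p = 0.00104) and DDIT3, the stress factor CHOP (0.38, adjusted p = 0.0189). Members of a list that did not pass are named after their values were seen, throughout. In the fit of all libraries the log2 fold changes of these 4 were 0.14, 0.41, 0.52 and 0.34, with adjusted p of 0.257, 0.059, 0.144 and 0.0852. None of 20 genes of the endoplasmic reticulum stress response passed (median log2 fold change 0.0013), and 1 did without replicate 3. The 11 genes of GCN1, the eIF2 kinases and eIF2 had a median of -0.05, with none past the test in either fit.

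The promoter of CHAC1 is shown because it holds the sequence that ATF4 and its dimer partners bind. The letters TGATGNAA (either strand) were searched from 250 bases before to 50 after the annotated start in RefSeq promoters of GRCh38.p14, which were at hand for 10497 of the genes tested and 40 of the 53 called. They occurred in 2 of 17 genes that rose (11.8%, CHAC1 and VGLL4), in 1 of 23 that fell (4.35%, SEMA3C) and in 1.74% of all promoters. The motifs were chosen after the called genes were known, and a match is a description of the letters. The CHAC1 window (chr15:40953221-40953520, plus strand) is given 5′ to 3′ with the match, which reads on the minus strand and begins 209 bases before the start, in capitals.
CHAC1: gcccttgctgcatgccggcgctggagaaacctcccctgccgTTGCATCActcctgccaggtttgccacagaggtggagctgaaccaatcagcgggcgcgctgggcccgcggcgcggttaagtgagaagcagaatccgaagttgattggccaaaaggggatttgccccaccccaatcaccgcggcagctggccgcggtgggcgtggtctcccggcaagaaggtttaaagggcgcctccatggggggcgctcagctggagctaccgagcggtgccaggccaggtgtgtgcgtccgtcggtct

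BMF, a BH3-only protein that neutralises survival proteins of the BCL2 family, had 728, 619 and 971 normalized counts in the Combination libraries, against 427, 393 and 452 in the IFNa libraries. Replicate 3 was highest in both groups, and the groups did not overlap (1.792-fold higher, log2 fold change 0.84, SE 0.13, adjusted p = 0.0151). Without replicate 3 the log2 fold change was 0.71 (adjusted p = 0.000288), and the call was lost in 3 of the 12 fits that left out 1 library, Combination replicate 1 and IFNa replicates 1 and 2 (highest adjusted p = 0.105). The level of BMF was lower in both interferon-treated groups than in the others, which averaged 4367 normalized counts with FC-A and 2806 with DMSO. BBC3, the BH3-only protein PUMA, had 282, 276 and 247 normalized counts with the Combination, against 148, 153 and 213 with IFNa, without overlap, and did not pass (log2 fold change 0.66, SE 0.14, adjusted p = 0.0643). TNFSF10, the death ligand TRAIL that interferon induces, had 23325, 24386 and 25958 normalized counts with the Combination, against 19923, 18510.0 and 20516 with IFNa (log2 fold change 0.32, SE 0.08, adjusted p = 0.139). RIPK2, a kinase of innate immune signalling, had a log2 fold change of 0.14 (adjusted p = 0.614).

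Among 43 cell death genes BMF was the 1 that rose, none fell and the median log2 fold change was 0.08, with 30 positive. Without replicate 3, 5 passed, all higher, beside 3.89% of all genes. These were BMF, BBC3, CFLAR, an inhibitor of death receptor signalling, the TNF receptor TNFRSF1A and GSDMD, which forms pores in pyroptosis, so they include an inhibitor beside promoters of cell death. CDKN1A, which encodes the cell cycle inhibitor p21, had 4567, 4549.8 and 4027 normalized counts with the Combination, against 3245, 3146 and 3581 with IFNa (log2 fold change 0.40, SE 0.07, adjusted p = 0.0273). It was the 1 gene that rose among 22 p53 targets, of which none fell (median 0.05). It lost its call in 6 of the 12 fits that left out 1 library (highest adjusted p = 0.217, without IFNa replicate 1). Without replicate 3, 4 p53 targets passed higher, beside 3.89% of all genes, and 1 lower, beside 3.57%.

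TSC22D3, the glucocorticoid-induced leucine zipper, had 469, 504 and 599 normalized counts with the Combination, against 322, 314 and 383 with IFNa (log2 fold change 0.62, SE 0.11, adjusted p = 0.0315). PNRC1, a nuclear coregulator, had 1281, 1121 and 1208 normalized counts with the Combination, against 777, 773 and 960.2 with IFNa (log2 fold change 0.53, SE 0.10, adjusted p = 0.0476). Replicate 3 was the highest library of the Combination for TSC22D3 but not for PNRC1. TXNIP, a redox regulator that FOXO and glucose control, had 1969, 1985 and 2604 normalized counts with the Combination, against 1242, 1314 and 1499 with IFNa, and did not pass (log2 fold change 0.68, SE 0.15, adjusted p = 0.0741). The list of FOXO factors and targets does not hold TSC22D3, although FOXO factors are known to induce it. Of the 17 genes of the list none passed, 13 had a positive log2 fold change and the median was 0.15. Without replicate 3, 2 passed higher, TXNIP and ARRDC3, and 3 lower, INSR, IRS2 and CITED2. TSC22D3 and PNRC1 each lost their call in 9 of the 12 fits that left out 1 library, with the highest adjusted p (0.217 and 0.289) without IFNa replicate 1.

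SSBP3, RASGEF1B, HCAR2 and CIC were also called higher. SSBP3, a cofactor of LIM-domain transcription complexes, had 2398, 2346 and 2376 normalized counts with the Combination, against 1683, 1573 and 1841 with IFNa (log2 fold change 0.48, SE 0.07, adjusted p = 0.00814). Its 3 Combination libraries lay within a narrow range, all above the IFNa libraries. RASGEF1B, an exchange factor for small GTPases, had 516, 554 and 538 normalized counts with the Combination, against 325, 390.2 and 311 with IFNa (log2 fold change 0.65, SE 0.11, adjusted p = 0.0273). HCAR2, the receptor for niacin and hydroxybutyrate, had 128, 175 and 156 normalized counts with the Combination, against 82.6, 90.4 and 91.7 with IFNa (log2 fold change 0.78, SE 0.15, adjusted p = 0.0443). The groups did not overlap for either gene. SIX3, a homeobox factor, EFNA1, an ephrin ligand, TSKU, a secreted leucine-rich protein, and HES1, a Notch target repressor, rose, with log2 fold changes of 0.59, 0.40, 0.36 and 0.33 (adjusted p = 0.0378, 0.0273, 0.0273 and 0.0347). CIC, which encodes the repressor Capicua of the MAPK pathway, had 3019, 3118 and 2826 normalized counts with the Combination, against 2507, 2358 and 2526 with IFNa (log2 fold change 0.28, SE 0.05, adjusted p = 0.0378). It was the 1 member that rose among 34 immediate early and MAPK feedback genes, and none fell (median 0.03). Without replicate 3, 8 passed higher, among them FOS, JUN and JUNB of the AP-1 factor, and 1, MYC, lower. In fits that left out 1 library SSBP3 lost its call in 2, RASGEF1B in 6, TSKU in 7, CIC, EFNA1 and HES1 in 8 and HCAR2 and SIX3 in 9. The highest adjusted p came without IFNa replicate 1 and was 0.0783 for SSBP3, 0.27 for HCAR2, 0.222 for SIX3 and 0.217 for the other 5.

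**Figure D3:**
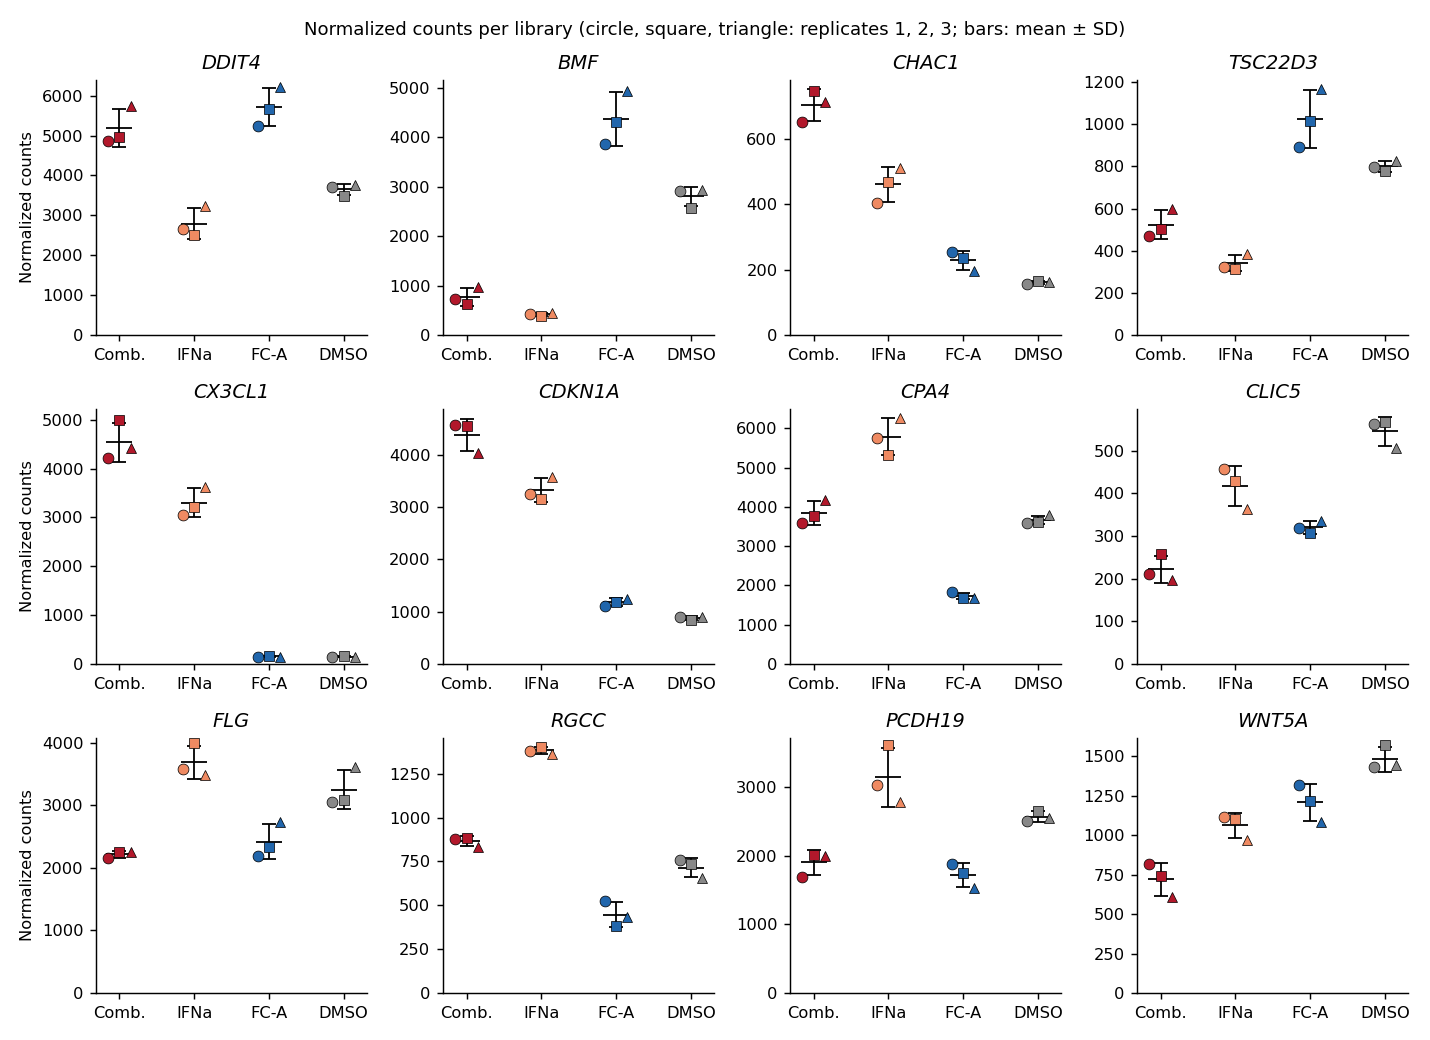
Normalized counts of a selection of the called genes in each of the 12 libraries, on linear axes from 0. Groups are, from left to right, Combination, IFNa, FC-A and DMSO. Points are libraries (circle, square and triangle for replicates 1, 2 and 3) and bars the mean ± SD (n = 3). For DDIT4 the Combination libraries lie between 4868 and 5746 and the IFNa libraries between 2501 and 3225; for CPA4 they lie between 3595 and 4173, below the IFNa libraries at 5334 to 6274.

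Secreted enzymes and matrix genes were among those that fell. CPA4, a secreted carboxypeptidase, had 3595, 3767 and 4173 normalized counts in the Combination libraries, against 5759, 5334 and 6274 in the IFNa libraries (log2 fold change -0.59, SE 0.07, adjusted p = 0.00292). MMP1, the interstitial collagenase, had 41.2, 42.6 and 45.9 normalized counts with the Combination, against 83.6, 86.6 and 73.1 with IFNa (log2 fold change -0.89, SE 0.14, adjusted p = 0.0199). ADAMTS1, a secreted protease of proteoglycans, had 1605, 1489 and 1714 normalized counts with the Combination, against 2172, 2299.6 and 2004 with IFNa (log2 fold change -0.43, SE 0.07, adjusted p = 0.0133). For none of the 3 did the groups overlap, and in MMP1 the highest Combination library lay well below the lowest IFNa library. These 3 were the called members of 28 matrix proteases, inhibitors and matrix genes, of which none rose and 9 had a positive log2 fold change (median -0.09). Without replicate 3, 10 passed lower, beside 3.57% of all genes, including the matrix glycoproteins THBS1, TNC and FN1, and 1, the plasminogen activator PLAT, passed higher, beside 3.89%. MMP1 lost its call in 5 of the 12 fits that left out 1 library (highest adjusted p = 0.164) and ADAMTS1 in 4 (highest 0.105), in each case without Combination replicates 1 or 2 or IFNa replicates 1 or 2, and MMP1 also without Combination replicate 3.

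FLG encodes profilaggrin, a filament-binding protein of squamous epithelia, and had 2151, 2245 and 2254 normalized counts with the Combination, against 3582, 3987 and 3477 with IFNa (log2 fold change -0.73, SE 0.08, adjusted p = 0.00292). The highest Combination library lay well under the lowest IFNa library, and the Combination libraries lay close together. KCNJ15, an inward-rectifier potassium channel, had 95.0, 90.0 and 81.1 normalized counts with the Combination, against 225, 173 and 176 with IFNa (2.134-fold lower, log2 fold change -1.09, SE 0.17, adjusted p = 0.0151). KCNK2, a stretch-sensitive potassium channel, had 517, 557 and 524 normalized counts with the Combination, against 798, 804 and 801 with IFNa (log2 fold change -0.59, SE 0.08, adjusted p = 0.00814). CLIC5, a chloride intracellular channel protein tied to the actin cortex, had 211, 258 and 198 normalized counts with the Combination, against 458, 429 and 364 with IFNa (log2 fold change -0.91, SE 0.11, adjusted p = 0.00358). The channel genes fell without overlap, and CLIC5 was the one among them that kept its call whichever library was left out. KCNK2 lost it without IFNa replicate 1 or 2 (highest adjusted p = 0.071), and KCNJ15 without IFNa replicate 1 or 2 or any Combination library (highest 0.163).

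Of the promoters at hand for genes that fell, 4 of 23 (17.4%) held the AP-1 site TGANTCA on either strand, those of CPA4, FLG, KCNJ15 and SCEL, the last encoding sciellin of squamous epithelia. SCEL is named after its values were seen (log2 fold change -0.37, adjusted p = 0.0256), and it lost its call in 6 of the 12 fits that left out 1 library (highest adjusted p = 0.174, without IFNa replicate 1). The site occurred in 0 of 17 promoters of genes that rose and in 4.90% of all 10497. These promoters are shown because AP-1 sites are a shared feature of many epithelial differentiation and protease genes. The CPA4 window (chr7:130292911-130293210, plus strand) holds a pair of sites, beginning 48 and 15 bases before the start and given in capitals. For the others only the bases around the site are given, 5′ to 3′ on the gene's strand, at chr1:152325301-152325329 (minus strand) for FLG, chr21:38272462-38272490 (plus) for KCNJ15 and chr13:77535646-77535674 (plus) for SCEL, all in GRCh38.p14.
CPA4: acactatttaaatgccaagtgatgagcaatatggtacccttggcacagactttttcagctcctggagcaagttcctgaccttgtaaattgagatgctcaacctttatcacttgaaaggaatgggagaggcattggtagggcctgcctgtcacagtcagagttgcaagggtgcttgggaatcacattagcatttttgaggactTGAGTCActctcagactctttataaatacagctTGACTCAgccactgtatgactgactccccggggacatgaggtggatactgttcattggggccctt
FLG: ttggttaggaaTGAATCAgaccatcccac
KCNJ15: cttccccctgcTGAGTCAgttccccagat
SCEL: tcctccctgagTGACTCAgccgctgagca

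The interferon-stimulated response element was in no promoter of the 40 called genes and in 2.85% of all. The TEAD site GGAATG (either strand) was in 4 of 23 promoters of genes that fell (CPA4, FLG, KCNK2 and ZNF860), in 0 of 17 of genes that rose and in 10.9% of all. The E-box CACGTG was in 2 of 17 promoters of genes that rose, in 1 of 23 of genes that fell and in 9.89% of all. In FLG the TEAD letters overlap the AP-1 site, and in CPA4 they stand apart from it. The FOXO site GTAAACA, the cyclic AMP response element TGACGTCA, the STAT palindrome TTCNNNGAA and the Capicua site TGAATGAA were also searched. Each was in 0 of 17 promoters of genes that rose and in 1 of 23 of genes that fell. In that order, they were in 2.16%, 3.13%, 6.14% and 1.26% of all.

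BMPER, WNT5A, F2R and RGCC were also called lower. BMPER, an extracellular BMP-binding protein, had 117, 114 and 74.7 normalized counts with the Combination, against 265, 263 and 215 with IFNa (2.453-fold lower, log2 fold change -1.29, SE 0.25, adjusted p = 0.0434). WNT5A, a ligand of noncanonical Wnt signalling, had 815, 740.1 and 609.7 normalized counts with the Combination, against 1115, 1102 and 971 with IFNa (log2 fold change -0.57, SE 0.10, adjusted p = 0.0315). Combination replicate 3 was the lowest library for BMPER and for WNT5A, and the groups did not overlap. ROR1, a receptor of WNT5A, LTBP1, which anchors latent TGF-beta in the matrix, the guidance ligand SEMA3C and PTGER3, the prostaglandin receptor EP3, were looked up after the called genes were known. They fell, with log2 fold changes of -0.36, -0.35, -0.44 and -1.10 (adjusted p = 0.0355, 0.0282, 0.00959 and 0.0378). F2R, the thrombin receptor, had 796, 784 and 736 normalized counts with the Combination, against 1143, 1225 and 985 with IFNa (log2 fold change -0.53, SE 0.08, adjusted p = 0.00992). RGCC, a regulator of the cell cycle that complement and TGF-beta induce, had 879, 883 and 833 normalized counts with the Combination, against 1379, 1405 and 1364 with IFNa (log2 fold change -0.68, SE 0.09, adjusted p = 0.00814). The RGCC libraries lay close together within each group and far apart between them. Of 25 TGF-beta, BMP and Wnt feedback genes none passed (median -0.00032), and 1 higher and 2 lower did so without replicate 3. The list of cyclic AMP and prostaglandin signalling does not hold PTGER3, which was called lower, and of the 22 genes it has none passed (median 0.09), and 1 passed in each direction without replicate 3. The calls of RGCC were lost without IFNa replicates 1 or 2 (highest adjusted p = 0.0783) and of F2R also without Combination replicate 3 (highest 0.0934). Those of BMPER and WNT5A were lost in 8 of the 12 fits that left out 1 library (highest 0.259 and 0.217, without IFNa replicate 1). SEMA3C lost its call in 3 of these fits, LTBP1 in 8 and ROR1 and PTGER3 in 9 (highest 0.23, for PTGER3 without IFNa replicate 1).

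The remaining named genes that fell were PCDH19, a protocadherin, with 1694, 2018 and 1999.8 normalized counts in the Combination libraries, against 3027, 3621 and 2783 in the IFNa libraries (log2 fold change -0.72, SE 0.10, adjusted p = 0.00814), and SYT1, a calcium sensor of vesicle release, with 466, 433 and 461 normalized counts with the Combination, against 679, 669 and 577 with IFNa (log2 fold change -0.50, SE 0.07, adjusted p = 0.00926). Neither gene's groups overlapped. TMEM178A, a membrane protein, TOM1L2, a trafficking adapter, and ST6GAL2, a sialyltransferase, fell, with log2 fold changes of -1.08, -0.61 and -0.47 (adjusted p = 0.0434, 0.0378 and 0.0199). Of 427 zinc finger genes named ZNF, ZNF860 and ZNF608 fell and none rose (median -0.0029). CRIM1, a membrane protein that binds BMPs, had 10962, 11512 and 9892 normalized counts with the Combination, against 14701, 15662 and 12596 with IFNa (log2 fold change -0.41, SE 0.07, adjusted p = 0.0331). It was the 1 gene that fell among 21 targets of YAP and the TEAD factors, and none rose. In that list 2 of 21 log2 fold changes were positive (median -0.16), and without replicate 3, 9 passed, all lower, beside 3.57% of all genes. For CTGF, a secreted matrix regulator and widely used YAP target, the Combination libraries had 13334, 13186 and 10401 normalized counts, against 17161, 18789.9 and 14370.1 in the IFNa libraries (log2 fold change -0.45, SE 0.15, adjusted p = 0.241), without overlap. ANKRD1, another such target, had 800.0, 683 and 329 normalized counts with the Combination, against 1335, 1627 and 638 with IFNa, and here IFNa replicate 3 lay below Combination replicates 1 and 2 (log2 fold change -0.98, SE 0.44, adjusted p = 0.363). PCDH19 lost its call without IFNa replicate 1 (adjusted p = 0.0613) and SYT1 without Combination replicate 2 or IFNa replicates 1 or 2 (highest 0.0934). CRIM1, TMEM178A, ZNF860 and ZNF608 lost theirs in 9 of the 12 fits, TOM1L2 in 8 and ST6GAL2 in 5 (highest 0.289, for ZNF860 without IFNa replicate 1).

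Of 56 interferon-stimulated genes tested, 53 had a positive log2 fold change and the median was 0.12, against 0.0046 over all genes, while 1 rose past the test and none fell. In 35 of the 56 the 3 Combination libraries lay above all 3 IFNa libraries, beside 9.64% of all genes. The gene that rose was PML, the scaffold of PML nuclear bodies, with 19341, 18918 and 18508 normalized counts in the Combination libraries, against 16222, 16189 and 16739 in the IFNa libraries (log2 fold change 0.21, SE 0.04, adjusted p = 0.0434). Its groups were separated by a gap larger than the spread within either. ISG15, a ubiquitin-like antiviral protein, had 95666, 91197 and 96440.0 normalized counts with the Combination, against 78310.4, 79830.0 and 89029 with IFNa (log2 fold change 0.20, SE 0.08, adjusted p = 0.297). IFIT2, which binds viral RNA and whose reads may be shared with related IFIT genes, had 127176, 133963 and 154316 normalized counts with the Combination, against 105119, 102473 and 116309 with IFNa (log2 fold change 0.36, SE 0.11, adjusted p = 0.195). Both were without overlap. Without replicate 3, 8 of the 56 passed, all higher, beside 3.89% of all genes. PML lost its call in 15 of the 24 alternatives. These were 9 of the 12 fits that left out 1 library (highest adjusted p = 0.272, without IFNa replicate 1), TMM scaling, quantile normalization, edgeR, no filter on low values, no variance trend and the fit of the 2 groups alone.

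The signalling components of the interferon response did not pass. IFNAR1 and IFNAR2, the receptor chains, had log2 fold changes of -0.0019 and 0.08 (adjusted p = 0.991 and 0.612), and that of IFNAR1 changed sign under other settings. STAT2 and IRF9, which act in the transcription complex below it, had 0.20 and 0.16 (adjusted p = 0.432 and 0.729), and that of IRF9 changed sign without IFNa replicate 2. Among 23 receptor, JAK-STAT and feedback genes 19 were positive (median 0.12), with none past the test and 5 higher without replicate 3. None of 22 genes of MHC class I presentation passed (median 0.08, with reads of the HLA genes possibly shared between copies), and 1, HLA-E, passed without replicate 3. Of 10 interferon-inducible chemokines and ligands none passed (median 0.24), and TNFSF10 and LGALS9 did so without replicate 3. That list does not hold the chemokine CX3CL1, which was called higher and was much scarcer without interferon, as given below.

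CX3CL1, the membrane-bound chemokine fractalkine, had 4212, 4983 and 4415 normalized counts with the Combination, against 3050.5, 3210.5 and 3626 with IFNa (log2 fold change 0.46, SE 0.09, adjusted p = 0.0434). It was much scarcer without interferon, at 155 normalized counts on average with FC-A and 149 with DMSO. CX3CL1 was the 1 gene that rose among 26 NF-kB and TNF response genes, of which none fell (median 0.12), and without replicate 3, 5 passed, all higher. LIPA, the lysosomal acid lipase that frees cholesterol from its esters, had 6817, 6762 and 8433 normalized counts with the Combination, against 5189, 5094 and 5965 with IFNa (log2 fold change 0.43, SE 0.08, adjusted p = 0.0409). Its level too was lower without interferon, at 1201 with FC-A and 1209 with DMSO. CX3CL1 and LIPA lost their call in 9 of the 12 fits that left out 1 library (highest adjusted p = 0.289 and 0.264, without IFNa replicate 1).

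None of 31 genes of DNA replication and the G1/S transition passed the test. In the fit of all libraries all 31 had a negative log2 fold change (median -0.20, against 0.0046 over all genes), but 1 was positive under quantile normalization, 1 in edgeR, 1 in DESeq2 and 2 without replicate 3. Without replicate 3, 15 passed, all lower, beside 3.57% of all genes. MCM6, a subunit of the replicative helicase, had 3859, 3948 and 2842 normalized counts with the Combination, against 4789, 5037 and 3630.2 with IFNa (log2 fold change -0.34, SE 0.14, adjusted p = 0.339). IFNa replicate 3 lay below Combination replicates 1 and 2, so the groups overlapped. In bulk libraries fewer cells in S phase and less of these RNAs in each cell cannot be told apart. Of 34 mitotic genes 3 were positive (median -0.10), with none past the test, and without replicate 3, 1 passed higher and 5 lower. MYC, a transcription factor of cell growth, had 2376, 2556 and 2115 normalized counts with the Combination, against 2907, 2936 and 3011 with IFNa, without overlap, and missed the threshold (log2 fold change -0.33, SE 0.07, adjusted p = 0.0591). Of 14 EGF receptor ligands and receptors none passed (median -0.13), and NRG1, ERBB4 and TGFA passed lower without replicate 3. Histone genes that peak in S phase had a median of 0.38 over 29 tested with none past the test, and 4 passed higher without replicate 3. Their transcripts mostly lack the poly(A) tail that the library kit selects, and reads may be shared between copies.

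CA9 had the largest log2 fold change in a list of 30 hypoxia and glycolysis genes, and NDRG1, another member, is named after its values were seen. Replicate 3 was the highest library of both groups for each of them. NDRG1, a hypoxia-induced stress protein, had 9612, 9435 and 17969 normalized counts with the Combination, against 5860.3, 5105 and 10448 with IFNa (log2 fold change 0.79, SE 0.33, adjusted p = 0.332). For NDRG1, replicate 3 of IFNa exceeded Combination replicates 1 and 2. CA9, a carbonic anhydrase of hypoxic cells, had 68.6, 24.9 and 126 normalized counts with the Combination, against 13.3, 2.86 and 30.6 with IFNa (log2 fold change 2.35, SE 0.75, adjusted p = 0.221). Of the 30 genes of the list none passed, 24 were positive (median 0.13), and without replicate 3, 8 passed higher, beside 3.89% of all genes, and 1, EGLN3, lower, beside 3.57%. What set replicate 3 apart was not tested.

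The 14-3-3 genes themselves did not pass in either fit. Of the 7, 2 had a positive log2 fold change (median -0.03). YWHAZ, the zeta isoform, had 41662, 41696 and 42579.7 normalized counts with the Combination, against 41063, 41221 and 38803 with IFNa (log2 fold change 0.06, SE 0.05, adjusted p = 0.62). SFN, the sigma isoform of epithelia, had 2963, 2759 and 3083 normalized counts with the Combination, against 2553, 2423 and 2836 with IFNa (log2 fold change 0.17, SE 0.07, adjusted p = 0.314). The YWHAZ libraries did not overlap between groups, with a difference about the size of its standard error, and those of SFN overlapped. YWHAB and YWHAE had log2 fold changes of -0.03 and -0.03 that changed sign when a library was left out.

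No other list had a member past the test. The median log2 fold change was -0.04 over 20 NRF2 targets, -0.06 over 18 heat shock genes, in which HSPA1 copies may share reads, and 0.05 over 31 lysosome and autophagy genes. It was -0.02 over 82 cytosolic ribosomal protein genes, 0.06 over 21 mitochondrially encoded genes, 0.0024 over 111 LINC RNAs and 0.04 over 244 antisense RNAs. The sign of the median depended on the scaling for antisense RNAs (-0.00087 under quantile normalization) and for the lists whose median lay within 0.01 of 0, those of endoplasmic reticulum stress, fatty acid synthesis, TGF-beta, BMP and Wnt feedback, ZNF and LINC genes. Without replicate 3 the 7 lists from NRF2 targets to antisense RNAs had between 0 and 3 members past the test in either direction.

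**Figure D4:**
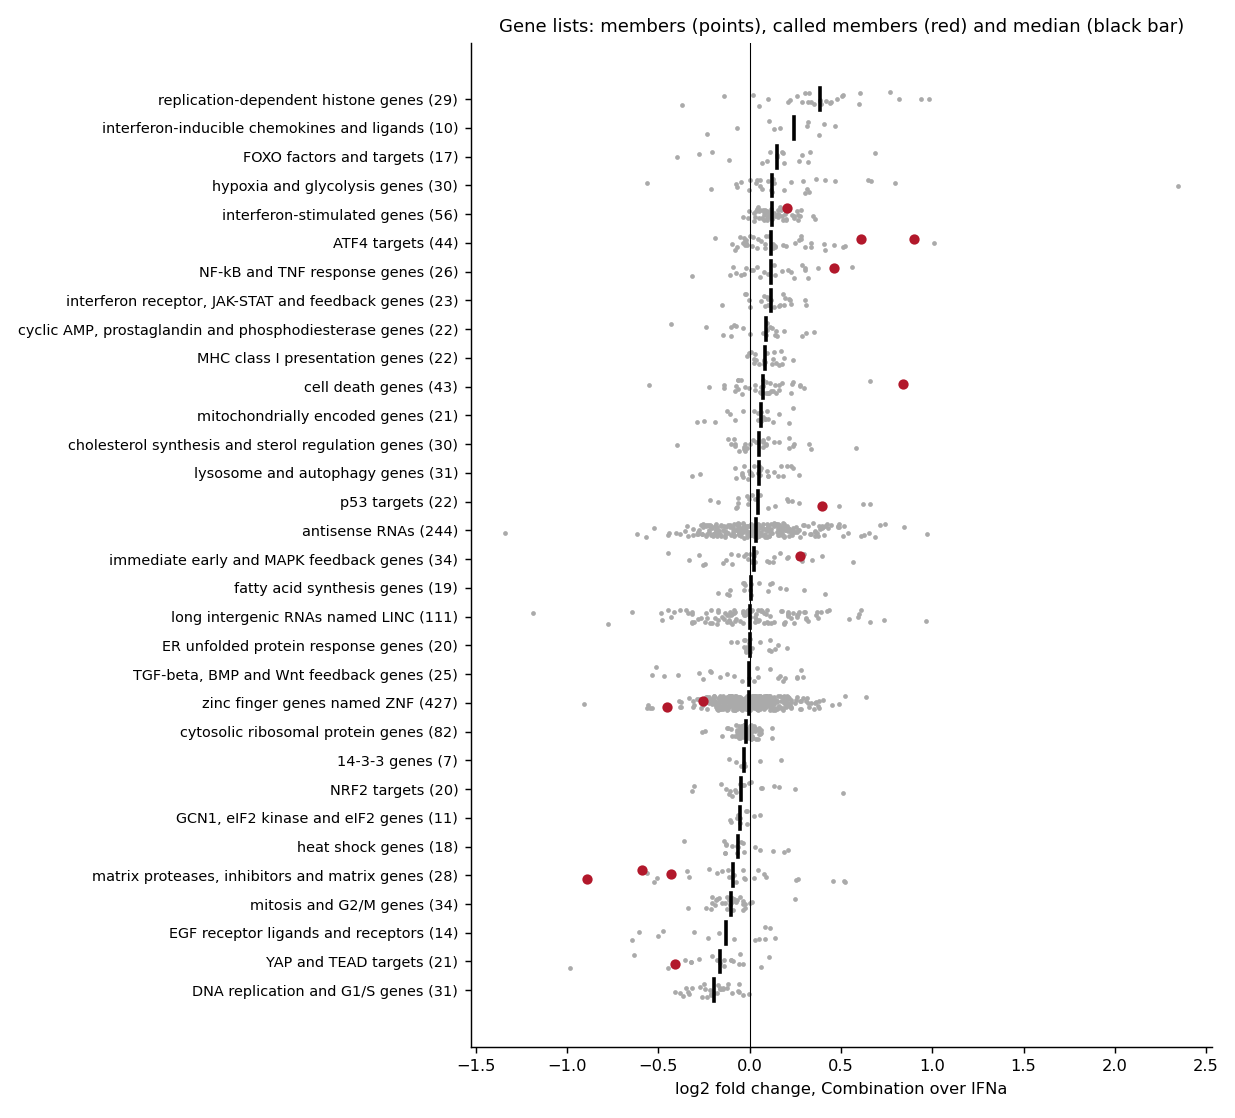
Each point is the log2 fold change, Combination over IFNa, of 1 tested member of a gene list, with the number tested in brackets; the black bar is the median of the list and red points passed the test. The 56 interferon-stimulated genes have a median of 0.12, the 31 replication genes one of -0.20.

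The effect of FC-A with interferon was set beside its effect without. FC-A against DMSO, which shares no library with the Combination against IFNa, called 48 genes (0.3% of 15990), 25 higher (0.156%) and 23 lower (0.144%). Of these, 16 were called in both comparisons, all in the same direction, which is 30.2% of the 53 and 33.3% of the 48. DDIT4, CDKN1A, CIC, CPA4, CLIC5, RGCC, PCDH19, SYT1 and CRIM1 were among them. Of the 53, 51 had the same sign without interferon, beside 64.5% of all genes, and of the 48, 45 had the same sign with it. Pearson's r between the log2 fold changes was 0.263 over all genes and 0.871 over the 53 chosen for their change with interferon, given as a description across genes. The size of the change was larger with interferon in 43 of the 53 (median absolute log2 fold change 0.451, against 0.319 without), and since the 53 were chosen by their change with interferon this carries no test.

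No gene (0% of 15990) passed the test of the difference between the effects in limma (627 had an unadjusted p under 0.05, smallest adjusted p = 0.593) or in edgeR. DESeq2 on the recovered reads called 3 genes, among them CPA4 and, named after its values were seen, KLHL29. The 3 are 0.0188% of the genes tested. The limma fit without replicate 3 called 1 gene (0.00627%), NOV. CPA4 fell less with interferon (-0.59, SE 0.07) than without (-1.08, SE 0.07), where it had 1834, 1692 and 1671 normalized counts in the FC-A libraries, against 3599, 3611 and 3783 in the DMSO libraries. The difference between its effects was 0.49 (SE 0.10), with an adjusted p of 0.593 in limma and 0.0316 in DESeq2.

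Sterol and lipid genes were called without interferon and not with it. FC-A without interferon raised 7 of 30 cholesterol synthesis and sterol regulation genes (0.156% of all genes rose) and lowered none (median 0.18). With interferon none passed (median 0.05), or 4 higher without replicate 3, beside 3.89% of all genes. INSIG1, a sterol-regulated anchor of the SREBP factors, had log2 fold changes of 0.22 with interferon (adjusted p = 0.195) and 0.48 without (adjusted p = 0.00431). SCD, the fatty acid desaturase, had 0.30 with interferon (adjusted p = 0.116) and 0.58 without (adjusted p = 0.00235). None of the 30 passed the test of the difference between the effects in limma, and the adjusted p was 0.9998 for INSIG1 and 0.9998 for SCD. None of 19 fatty acid synthesis genes passed with interferon (median 0.0070), and 4 passed higher without replicate 3.

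Several genes were called with interferon while their log2 fold change without it was near 0. LIPA had a log2 fold change of 0.43 with interferon and -0.01 without (SE 0.08). That of CX3CL1 was 0.46 with interferon and 0.06 without, that of PNRC1 0.53 with and 0.08 without, and that of SIX3 0.59 with and 0.11 without. Among genes that fell, ST6GAL2 had -0.47 with interferon and -0.03 without, and ZNF860 had -0.45 with and 0.07 without. Their differences between the effects had unadjusted p of 0.00179, 0.00594, 0.00836, 0.00801, 0.00121 and 0.000892, and none passed after adjustment over all genes (adjusted p = 0.951 for ZNF860 and 0.9998 for the other 5). A difference between the effects is therefore not shown for these genes.

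**Figure D5:**
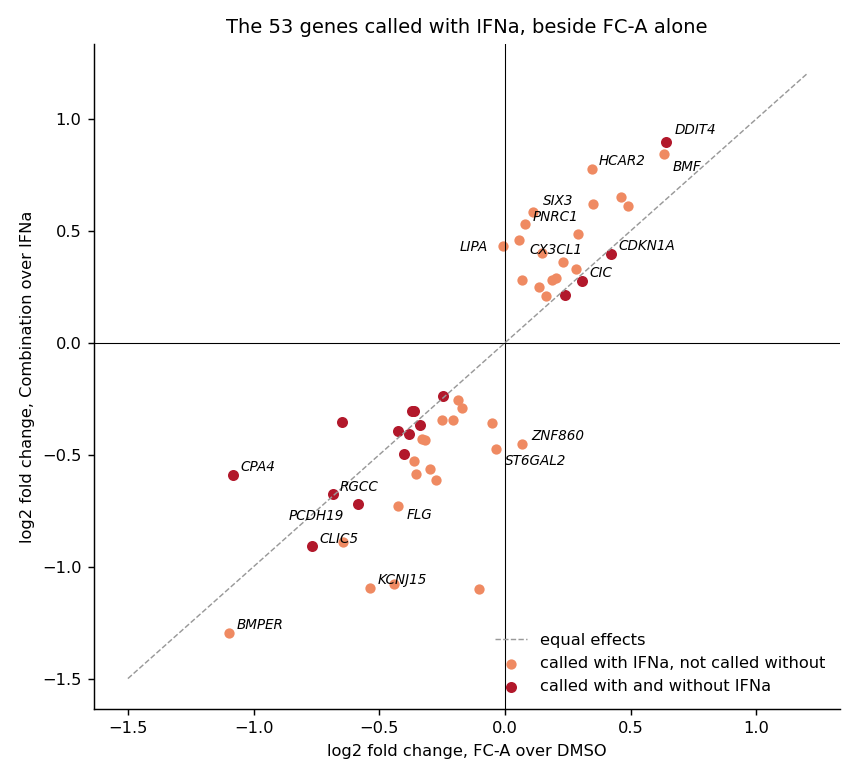
Each point is 1 of the 53 genes called for the Combination against IFNa, with the log2 fold change of FC-A over DMSO on the horizontal axis and of the Combination over IFNa on the vertical axis; dark points were called in both comparisons and the dashed line marks equal effects. Of the 53 points, 51 lie in the quadrants of equal sign, and CPA4 lies above the line with a fall of 0.59 on the log2 scale with interferon and 1.08 without.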

How the data were processed

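The signal values analysed here are normalized counts, 1 per gene and library, deposited by the authors for 28035 genes. The authors' deposited fold changes and p-values were not used. Per the submitters' processing notes the build was hg19 and the tools included FastQC, DESeq2 1.24.0, STAR 2.7.3 and bcl2fastq 2.20. How reads were counted, and on which annotation, was not given in any source used here. The library kit was stranded and selected poly(A) RNA from 100 ng of total RNA, per the labels' protocols. Multiplied by 1 factor per library, 100% of values came within 0.01 of a whole number, and these recovered reads gave the depths and served edgeR and DESeq2, which called 55 and 240 genes. Depth sets the precision of low genes, and 309 of the genes tested had a mean under 10 in the 6 libraries compared.

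Genes with a mean of at least 10 over the 12 libraries were analysed as log2(normalized count + 1), which understates the fold changes of low genes. limma 3.58.1 in R 4.3.3 (variance trend, no block) fitted 4 group means to all 12 libraries, with two-sided tests and Benjamini-Hochberg adjustment over the 15990 genes at 0.05. SE is the moderated standard error of a log2 fold change. Of the 28035 rows listed, 179 repeated the symbol of an earlier row, and rows were tested separately. Where a gene was looked up by its symbol, the row with the highest mean was used. Lists matched by a name pattern, such as ZNF, took every matching row.

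The rule for named genes took, among called genes with a mean of at least 50 and no overlap, the 15 that rose most and the 15 that fell most, then up to 5 called members of each of 36 lists (or the largest log2 fold change, by value), and a fixed set that includes the 14-3-3 genes. It named 79 genes, 36 of them called. The compared groups, the lists, the rule and the fit without replicate 3 were chosen with earlier results of these data known, and list members named beyond the rule were chosen after their values were seen. The values of some genes are not reported here. Promoter sequences are RefSeq's (GRCh38.p14), matched by Ensembl gene identifier, or by symbol where the identifier gave no match.

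The settings varied were the pseudocount (0.5 or 8), the filter (none, or a mean of at least 50), TMM and quantile scaling, the variance trend, a fit of the 2 groups alone, a replicate block, each library left out, edgeR 4.0.16 (quasi-likelihood) and DESeq2 1.42.0.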

Additional observations from a re-analysis of the deposited data

How the results depend on the processing

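The count of 53 genes called for the Combination against IFNa stayed within 1.5 times under pseudocounts of 0.5 and 8 (53 and 60), no filter (41), a mean of at least 50 (57), TMM scaling (56), quantile normalization (43) and edgeR (55). Quantile normalization called 12 higher and 31 lower, against 22 and 31. The fit without a variance trend called 11 genes (2 higher, 9 lower), the fit of the 2 groups alone 10 (2 higher, 8 lower) and DESeq2 240 (143 higher, 97 lower). Leaving out libraries gave 4 to 1189 calls, 1 to 620 higher and 3 to 569 lower, the most without replicate 3 of all groups. For FC-A against DMSO the 48 calls became 20 without the trend and 171 in DESeq2, and leaving out libraries gave 16 to 134. The test of the difference between the effects gave 3 calls in DESeq2 and 0 to 1 when libraries were left out. Causes of these shifts were not tested.

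The replicate number as a block gave 1009 calls for the Combination against IFNa (542 higher, 467 lower), all 53 among them, 289 for FC-A against DMSO and 1 for the difference between the effects. The labels do not say that a number marks a shared day or culture. Deviations of Combination and IFNa libraries with the same number correlated at 0.072, 0.107 and 0.298 for replicates 1, 2 and 3. Combination replicate 1 correlated more with IFNa replicate 2 (0.152). Replicate 3 of either group correlated at -0.23 to -0.116 with replicates 1 and 2 of the other. Replicate 3 thus shared a deviation between the groups, which the main test, without a block, leaves in its spread. As the labels give no pairing, the numbers were not taken as one.

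Of the 36 named genes that were called, none changed sign under any of the 24 settings, and between 4 (without IFNa replicate 1) and 36 kept their call. Of the 36, 28 lost it without the variance trend, 26 in the fit of the 2 groups alone, 11 under quantile normalization, 8 with no filter, 4 in edgeR and 1, PML, under TMM scaling. Among named genes that were not called, signs changed for 5. IFNAR1 was at 0.0024 under quantile normalization and 0.00039 in DESeq2, and lay between -0.044 and 0.030 as libraries were left out. Leaving out libraries moved MT-TA between -0.82 and 0.061, YWHAB between -0.072 and 0.0050, YWHAE between -0.081 and 0.011 and IRF9 between -0.082 and 0.42. Depth of 31.2 to 39.5 M reads limits mainly genes near the minimum of 10 normalized counts.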
